A study of Mus musculus with 4 samples.

Results

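The Hox genes of mouse clusters A to D were read in immortalized mouse embryonic fibroblasts with and without PTIP. Members were all genes whose symbol is Hox followed by a cluster letter and a paralogue number. The RefSeq gene table lists 39 such genes, and 33 of them had at least 1 probe set on the array that carries their symbol alone, with 48 probe sets in all. These 33 genes stand among 18193 genes with such a probe set. The signals of the other 6 were not analysed here. A further 3 probe sets are shared by neighbouring Hox genes and were counted for neither.

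Hox genes encode homeodomain transcription factors that give cells along the head-to-tail axis and along the limb their positional identity. They lie in clusters, and their order on the chromosome follows the order of the body regions in which they are used, with low paralogue numbers anterior and high numbers posterior or distal. Cultured fibroblasts keep much of the Hox pattern of the body site they came from. Polycomb complexes hold Hox genes silent where they are not used, and the MLL and Trithorax proteins, which methylate histone H3 at lysine 4, keep them active. PTIP, the product of Paxip1, belongs to the complexes built around the methyltransferases Kmt2c and Kmt2d.

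Cells in which both PTIP alleles carry loxP sites were infected with a retrovirus, either one expressing Cre recombinase, giving PTIP -/- cells, or the empty vector, giving PTIP +/+ cells. All cells were immortalized fibroblasts, were grown with 10% serum and were selected with puromycin at 2.5 µg/ml. The vector-infected controls thus share the flanked alleles, the infection and the selection. Each genotype gave 2 total RNAs, numbered 1 and 2, and each RNA was hybridised to an Affymetrix array. The labels do not say which exons Cre removes or whether clones were picked. Nor do they say whether a number marks a separate line, culture, infection or day, so p-values measure only the spread between these RNAs. With 2 arrays against 2 the smallest two-sided p of an exact permutation test is 0.333, and the number of arrays limits the precision of every value.

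Signals are array intensities on a linear scale. Genes were tested with limma where the mean of their 4 log2 signals was at or above the 40th percentile of all probe sets, a signal of 47.68, and p-values were adjusted over the 12509 genes tested with the Benjamini-Hochberg method and called at 0.05. The same 47.68 is used as the level under which a signal is not read as a level. A fold written with "at least" sets the brighter group against this level, since both arrays of the dimmer group lay under it. The deletion was visible in Paxip1, which read 43.5 and 74.6 in PTIP -/- cells against 1029.5 and 1040.1 in PTIP +/+ cells. Between 34.1% and 40.6% of probe sets lay under the level on an array. Over the 12509 genes, arrays of the same replicate number correlated at 0.969 and 0.945 on the log2 scale, and arrays of the same genotype at 0.904 and 0.883. The arrays therefore lay closer to the array of the same number than to that of the same genotype.

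Of the 33 Hox genes, 12 were under the level on all 4 arrays, as were 20% of all genes, and 7 were at or above it on all 4, as were 61% of all genes. A further 6, Hoxa10, Hoxd9, Hoxd10, Hoxd11, Hoxd12 and Hoxd13, were at or above the level on both replicate 2 arrays and under it on both replicate 1 arrays. Over all 18193 genes that pattern was found in 246, or 1.35%. The reverse pattern was met by 1 Hox gene, Hoxb7, and by 1.93% of all genes. No Hox gene was at or above the level on both arrays of 1 genotype alone, which 1.28% of all genes were for PTIP -/- and 0.495% for PTIP +/+. Among the 14 measured genes of paralogue groups 9 to 13, 3 were at or above the level on each replicate 1 array, 10 on PTIP -/- replicate 2 and 9 on PTIP +/+ replicate 2. Among the 19 of groups 1 to 8, the counts were 7 and 8 on the replicate 1 arrays and 7 and 5 on the replicate 2 arrays. The number of Hox genes at or above the level was therefore higher in replicate 2 among groups 9 to 13, and not among groups 1 to 8.

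**Figure D1:**
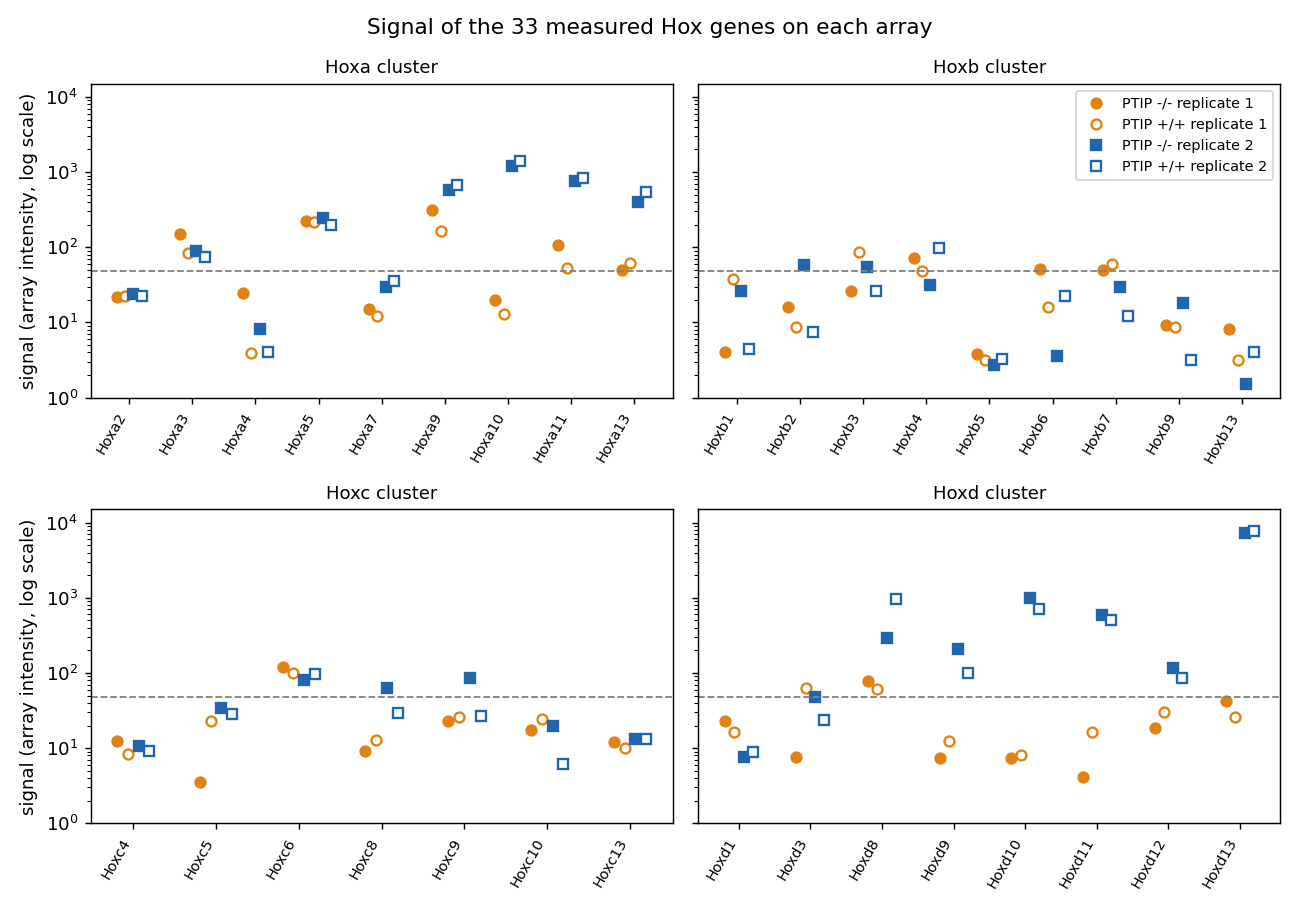
Signal of the 33 measured Hox genes on each of the 4 arrays, by cluster and paralogue number, on a log axis; orange circles are replicate 1, blue squares replicate 2, filled symbols PTIP -/- and open symbols PTIP +/+, and the dashed line marks the level of 47.68. From Hoxa9 to Hoxa13 and from Hoxd8 to Hoxd13 the blue squares lie above the orange circles, whereas in the Hoxb and Hoxc clusters no symbol passes 121.7.

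The starts of the 4 genes that passed the test between the replicate numbers, described in the next paragraphs, are shown first because these genes moved together. Each line gives the 250 bases before the RefSeq start on assembly GRCm38.p6, read 5′ to 3′ along the gene, with CG dinucleotides in capitals. Hoxa10 lies at chr6:52240855-52241104 and Hoxa13 at chr6:52260881-52261130, both on the minus strand. Hoxd10 lies at chr2:74691641-74691890 and Hoxd13 at chr2:74667975-74668224, both on the plus strand. RefSeq gives Hoxa10 2 starts, and the outer one is shown.
Hoxa10: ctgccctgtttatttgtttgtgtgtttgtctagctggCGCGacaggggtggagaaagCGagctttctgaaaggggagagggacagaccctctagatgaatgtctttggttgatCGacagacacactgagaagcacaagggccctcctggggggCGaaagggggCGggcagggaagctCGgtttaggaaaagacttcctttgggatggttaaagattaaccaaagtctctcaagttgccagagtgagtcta
Hoxa13: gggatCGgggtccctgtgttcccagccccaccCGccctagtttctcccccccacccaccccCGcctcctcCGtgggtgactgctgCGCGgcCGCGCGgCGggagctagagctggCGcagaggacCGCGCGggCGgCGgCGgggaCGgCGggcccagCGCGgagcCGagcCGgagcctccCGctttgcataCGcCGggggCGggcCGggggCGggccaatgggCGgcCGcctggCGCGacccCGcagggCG
Hoxd10: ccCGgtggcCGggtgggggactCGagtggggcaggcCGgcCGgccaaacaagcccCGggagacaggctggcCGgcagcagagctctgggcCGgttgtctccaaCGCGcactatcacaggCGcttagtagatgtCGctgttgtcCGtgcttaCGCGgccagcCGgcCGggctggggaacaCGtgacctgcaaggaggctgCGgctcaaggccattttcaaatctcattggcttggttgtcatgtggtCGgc
Hoxd13: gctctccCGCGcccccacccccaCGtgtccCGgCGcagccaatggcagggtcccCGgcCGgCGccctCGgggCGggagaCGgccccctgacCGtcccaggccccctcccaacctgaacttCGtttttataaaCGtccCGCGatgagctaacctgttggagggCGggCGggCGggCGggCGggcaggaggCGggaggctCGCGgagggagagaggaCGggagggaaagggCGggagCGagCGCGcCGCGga
The windows of Hoxa13, Hoxd13, Hoxd10 and Hoxa10 held 35, 31, 20 and 7 CG dinucleotides. Over 32851 promoter windows of this length the median was 6, and 2.97%, 5.19%, 17.9% and 46.3% of them held at least as many. The inner start of Hoxa10 held 20. Over the 12 windows of the 10 genes from Hoxa9 to Hoxa13 and Hoxd8 to Hoxd13 the median was 13 (2 to 35), and over the 6 windows of the other measured Hoxa and Hoxd genes it was 15 (6 to 28), so these ranges overlap. The letters TTTAT, a core that posterior Hox proteins bind, were found on either strand in 9 of the 24 Hox windows and in 37.3% of all promoters. Among the printed windows they stand in those of Hoxa10 and Hoxd13. The letters TGATNNAT, the form of a joint Pbx and Hox site, were in 4 of the 24 Hox windows and 7.68% of promoters, and in none of the 4 printed windows. The 24 windows include those of Hoxa6, Hoxb8 and Hoxd4, which have no probe set of their own. Hoxb8 and Hoxd4 held TTTAT, and Hoxb8 also TGATNNAT. These matches are a description of the letters only.

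Between the replicate numbers, the posterior genes of the Hoxa and Hoxd clusters differed most among the Hox genes tested, and all of them were higher in replicate 2. In the comparison of replicate 2 with replicate 1, 82 of 12509 genes passed, or 0.656%, of which 61 (0.488%) were higher and 21 (0.168%) lower in replicate 2. Hoxd13, Hoxd10, Hoxa10 and Hoxa13 were among the 61, and no Hox gene was among the 21. They are 4 of 13 Hox genes tested. The filter on low values kept 6 of the 9 measured genes in cluster A, 1 of 9 in B, 1 of 7 in C and 5 of 8 in D. Hoxa10, Hoxd10, Hoxd11, Hoxd12 and Hoxd13 passed that filter only through their replicate 2 signals, so the share among tested genes is no support. Over all 33 genes, 15 had both replicate 2 arrays above both replicate 1 arrays, beside 21.6% of all genes, and 3 had them below, beside 28.2%. All 10 measured genes from Hoxa9 to Hoxa13 and Hoxd8 to Hoxd13 were among the 15. The bounds of these stretches were set with these values known, so this is a description and no support. The calls depended on the fit: with no filter on low values none of the 4 passed (limma adjusted p from 0.125 to 0.147), and without PTIP -/- replicate 1, PTIP +/+ replicate 1 or PTIP +/+ replicate 2 no gene at all passed. Without PTIP -/- replicate 2 all but Hoxa13 passed.

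Paralogue group 13 marks the most distal limb and the hindmost trunk, and its members Hoxa13 and Hoxd13 pattern the digits and the genital tubercle. Hoxd13 read 42.0 and 26.3 on the replicate 1 arrays of PTIP -/- and PTIP +/+ cells and 7369.9 and 7643.8 on the replicate 2 arrays. Its log2 signal was 5.05 ± 0.48 (SD, n = 2) in replicate 1 and 12.87 ± 0.04 in replicate 2, a change of 7.82 ± 0.30 (SE, limma adjusted p = 0.0129), or at least 157-fold. The arrays of the replicate numbers did not overlap, and the fold was at least 155 within PTIP -/- and at least 160 within PTIP +/+. Its second probe set read 25.2 and 7.7 in replicate 1 and 1667.4 and 2080.7 in replicate 2.

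Hoxa13 was at 49.5 in PTIP -/- and 62.2 in PTIP +/+ in replicate 1, just over the level, and at 394.7 and 537.7 in replicate 2. Its log2 signal rose from 5.79 ± 0.23 to 8.85 ± 0.32 (SD, n = 2), by 3.05 ± 0.26 (limma adjusted p = 0.0396), or 8.30-fold, with 7.97-fold within PTIP -/- and 8.64-fold within PTIP +/+. Both replicate 2 arrays were above both replicate 1 arrays. The remaining members of the group stayed under the level on every array: Hoxb13 reached at most 8.1 and Hoxc13 at most 13.4. Group 13 was thus above the level in clusters A and D alone.

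Groups 10 to 12 act in the limb, the lumbar and sacral spine and the urogenital tract. Hoxd10, which also serves motor neurons of the hindlimb, read 7.5 and 8.0 in replicate 1 of PTIP -/- and PTIP +/+ and 990.4 and 712.5 in replicate 2. The change was 6.76 ± 0.25 on the log2 scale (limma adjusted p = 0.0129), or at least 17.6-fold, from 2.95 ± 0.07 to 9.71 ± 0.34 (SD, n = 2). No replicate 1 array reached the level and both replicate 2 arrays were well over it. Hoxa10, needed for lumbar vertebrae and the uterus, read 20.1 and 12.9 in replicate 1 and 1189.1 and 1399.1 in replicate 2. That change was 6.32 ± 0.30 (limma adjusted p = 0.0228), or at least 27.1-fold, from 4.01 ± 0.45 to 10.33 ± 0.17 (SD, n = 2). The second Hoxa10 probe set did not follow: it read 53.2 in PTIP -/- and 21.7 in PTIP +/+ in replicate 1 and 54.5 and 57.3 in replicate 2, with only PTIP +/+ replicate 1 under the level. Averaged over both probe sets, the Hoxa10 change was 3.52 with an adjusted p of 0.0572, which ends its call. Hoxc10 stayed under the level, at 24.7 or less.

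Hoxa11 and Hoxd11, which together shape the forearm and the kidney, missed the threshold narrowly. Hoxa11 read 106.1 and 53.6 in replicate 1 and 757.8 and 826.9 in replicate 2, a difference of 3.39 ± 0.38 (limma adjusted p = 0.0554), or 10.5-fold. Hoxd11 read 4.1 and 16.2 in replicate 1 and 589.7 and 505.7 in replicate 2, a difference of 6.07 ± 0.70 (limma adjusted p = 0.0578), or at least 11.5-fold. Neither gene's numbers overlapped, and their within-genotype folds were 7.14 and 15.4 for Hoxa11 and at least 12.4 and 10.6 for Hoxd11. Under other settings Hoxa11 passed the threshold in 5 of 13 fits and Hoxd11 in 3 of 12. Both passed when arrays were centred on their medians, with signals raised to the level, and with a variance trend and robust moderation. Neither passed with no filter, with genotype as a block or in any fit without 1 array. Hoxd12, a further distal limb gene, read 18.7 and 30.0 in replicate 1 and 115.7 and 84.6 in replicate 2. Its difference of 2.06 ± 0.33 did not pass (limma adjusted p = 0.1), though the numbers did not overlap.

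Group 9 opens the posterior stretch of each cluster. Hoxa9, best known from blood progenitors and leukaemia, read 313.3 and 162.1 in replicate 1 and 576.9 and 663.5 in replicate 2, a difference of 1.46 ± 0.38 (limma adjusted p = 0.168). Its second probe set, which has a lower mean and so does not stand for the gene, read 10.2 and 1.5 in replicate 1 and 2031.0 and 1600.0 in replicate 2, at least 42.6-fold within PTIP -/- and at least 33.6-fold within PTIP +/+. Both probe sets of Hoxa9 were higher in replicate 2, but by very different amounts. Hoxd9 was not tested, since its mean was under the level: it read 7.5 and 12.6 in replicate 1 and 210.9 and 99.9 in replicate 2, at least 4.42-fold within PTIP -/- and at least 2.10-fold within PTIP +/+. Hoxb9 reached at most 18.3, and Hoxc9 passed the level on 1 array alone, at 86.0 in PTIP -/- replicate 2 against 23.2, 25.7 and 27.0 on the other arrays.

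Hoxd8, the next gene of its cluster, read 78.7 and 61.9 in replicate 1 and 293.5 and 970.0 in replicate 2. The difference of 2.93 ± 0.62 did not pass (limma adjusted p = 0.134), with 3.73-fold within PTIP -/- and 15.7-fold within PTIP +/+, and the numbers did not overlap. Its second probe set read 4.7 and 19.3 in replicate 1 and 214.9 and 724.5 in replicate 2. The measured Hox genes on the anterior side of Hoxd8 did not share this order. Hoxd3 read 7.7 in PTIP -/- and 63.2 in PTIP +/+ in replicate 1 and 47.3 and 23.6 in replicate 2, with no order by number, and Hoxd1 stayed at 23.2 or less. The 2 probe sets shared by Hoxd3 and Hoxd4 reached at most 54.0.

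In cluster A the anterior genes likewise showed no shared order by number on their first probe sets. Hoxa5, which acts in the lung and the neck and upper trunk, was steady on its first probe set. That probe set read 220.2 and 217.6 in replicate 1 and 243.5 and 197.8 in replicate 2, a difference of 0.00 ± 0.21 (limma adjusted p = 0.993). The second Hoxa5 probe set differed from it, with both replicate 2 arrays the higher ones. It read 42.7 and 53.7 in replicate 1 and 140.3 and 78.6 in replicate 2. Averaged over both probe sets, the Hoxa5 change was 0.57 (limma adjusted p = 0.337). Hoxa3, which patterns the neck, thymus and parathyroid, read 152.0 and 83.9 in replicate 1 and 89.8 and 74.2 in replicate 2, a difference of -0.47 ± 0.36 (limma adjusted p = 0.507) with overlapping numbers. A further Hoxa3 probe set passed the level on PTIP -/- replicate 2, at 114.2 against 38.5, 35.0 and 24.1, and another touched it there at 49.9. Hoxa2, Hoxa4 and Hoxa7 were under the level on all arrays, and for Hoxa7 the signals of 15.3 and 12.1 in replicate 1 and 29.9 and 35.4 in replicate 2 are too low to be read as levels.

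Clusters B and C were dim throughout. No Hoxb probe set exceeded 98.8 and no Hoxc probe set 121.7 on any array, and none of their probe sets, 11 in each cluster, was above the level in replicate 2 alone, against 7 of 10 in cluster D and 2 of 16 in cluster A. Hoxb4, used to expand blood stem cells, read 72.5 and 48.9 in replicate 1 and 31.3 and 98.8 in replicate 2, a difference of -0.10 ± 0.62 (limma adjusted p = 0.94). Hoxc6, a gene of the thoracic region, read 121.7 and 98.8 in replicate 1 and 79.9 and 97.3 in replicate 2, a difference of -0.31 ± 0.23 (limma adjusted p = 0.496), and its second probe set lay between 66.2 and 97.1. The other members of these clusters passed the level on at most 2 arrays. Hoxb2 did so in PTIP -/- replicate 2 at 57.9, Hoxb6 in PTIP -/- replicate 1 at 51.4 and Hoxc8 in PTIP -/- replicate 2 at 63.7. Hoxb3 passed it in PTIP -/- replicate 2 at 54.7 and PTIP +/+ replicate 1 at 87.5, and Hoxb7 read 49.6 and 60.7 in replicate 1 and 29.5 and 12.0 in replicate 2. A second Hoxc5 probe set reached 48.5 in PTIP -/- replicate 2, and Hoxb1, Hoxb5, Hoxc4 and the first Hoxc5 probe set reached 37.7, 3.8, 12.5 and 34.6 at most.

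**Figure D2:**
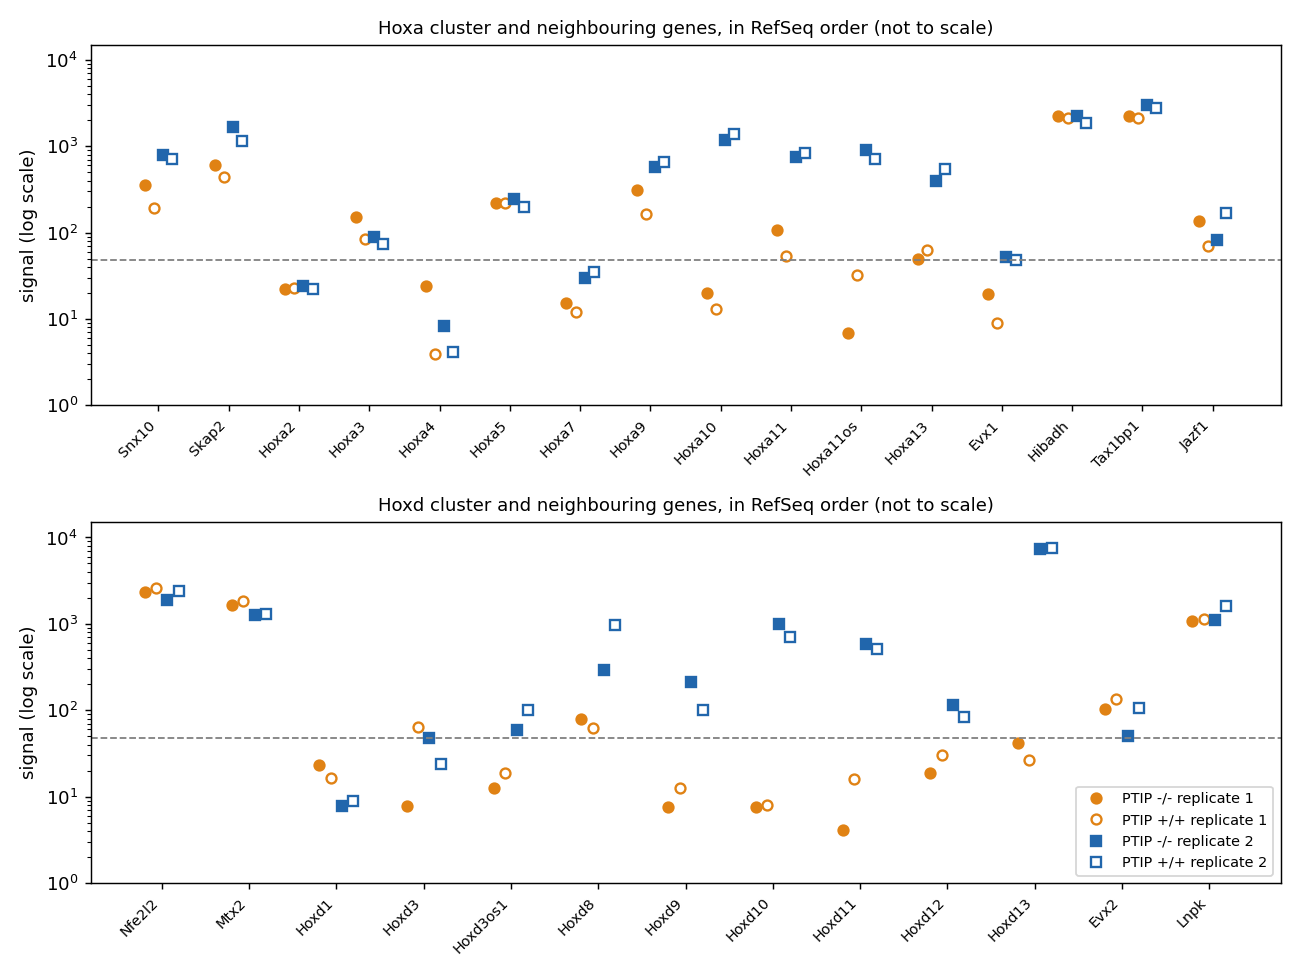
Signal on each of the 4 arrays for the genes of the Hoxa and Hoxd clusters and their neighbours, in RefSeq gene order and not to scale, on a log axis with symbols as in the plot by cluster and the level of 47.68 dashed. The blue squares lie above the orange circles from Hoxa9 to Hoxa13 and from Hoxd8 to Hoxd13. They also do so at Hoxa7, where all 4 are under the level, and at Hoxd3os1, anterior of Hoxd8. Past Hoxa13 they lie above at Evx1, just over the level, and at Tax1bp1, which differs by 0.42 on the log2 scale. Beyond the posterior ends, Hibadh and Lnpk differ by -0.08 and 0.29 on the log2 scale between the numbers; Snx10 and Skap2, at the anterior end of cluster A, are higher in replicate 2 by 1.52 and 1.42.

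Of 20 listed non-coding and Evx genes inside the clusters, 5 had a probe set, and neither of the 2 tested was called between the numbers. Hoxa11os, Evx1 and Hoxd3os1, 3 of the 5, were at or above the level on both replicate 2 arrays and under it on both replicate 1 arrays, beside the 1.35% of all genes. Hoxa11os, the antisense transcript that overlaps Hoxa11, read 6.8 and 32.4 in replicate 1 and 915.9 and 712.0 in replicate 2, a difference of 5.77 ± 0.79 (limma adjusted p = 0.0791), or at least 16.9-fold. No source used here names the strand that the Hoxa11 and Hoxa11os probe sets read. Evx1, the homeobox gene beyond Hoxa13, read 19.3 and 9.1 in replicate 1 and 52.3 and 48.6 in replicate 2, just over the level. Hoxd3os1, between Hoxd3 and Hoxd8, read 12.5 and 18.7 in replicate 1 and 59.4 and 101.2 in replicate 2. Evx2, the homeobox gene beside Hoxd13 that is active with it in digits, went the other way without passing: it read 102.3 and 136.5 in replicate 1 and 50.2 and 105.1 in replicate 2, a difference of -0.70 ± 0.43 (limma adjusted p = 0.421). Hoxb5os passed the level in PTIP -/- replicate 1 alone, at 51.2.

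Of 16 tested genes flanking the clusters none passed, with 8 higher and 8 lower in replicate 2 and a median difference of 0.05, beside -0.05 over all genes tested. The largest differences were those of Snx10 and Skap2, the neighbours at the anterior end of cluster A. Snx10 read 355.3 and 193.5 in replicate 1 and 785.6 and 716.0 in replicate 2, a difference of 1.52 ± 0.35 (limma adjusted p = 0.15). Skap2 read 613.1 and 435.9 in replicate 1 and 1673.4 and 1142.3 in replicate 2, a difference of 1.42 ± 0.31 (limma adjusted p = 0.139). In both genes the replicate 2 arrays were the higher ones, although Hoxa2 to Hoxa7, between them and Hoxa9, held no member above the level with that order on its first probe set. Calcoco1, near cluster C, followed at 0.81 ± 0.38. Hnrnpa1, the brightest of the list, differed by -0.51 ± 0.19, and Mtx2, at the anterior end of cluster D, by -0.43 ± 0.19. Skap1, Calcoco1 and Skap2 led by genotype with 1.0 ± 0.36, 0.63 ± 0.48 and 0.52 ± 0.73, and none passed.

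By genotype no Hox gene was called. None of the 12509 genes passed in that comparison (0%) with limma, 286 (2.29%) had an unadjusted p under 0.05, and no Hox gene was among those 286. Paxip1, the deleted gene, did not pass either, at -4.18 ± 0.36 (limma adjusted p = 0.999). The lack of a call is therefore no sign that a gene is unchanged. All 13 tested Hox genes had an adjusted p of 0.999. Their median difference, PTIP -/- minus PTIP +/+, was 0.16 on the log2 scale beside 0.05 over all genes tested. Standard errors were wide for the genes that differed between the replicate numbers, because this fit has no term for the number. Hoxd13 differed by 0.31 ± 3.84, Hoxd10 by 0.19 ± 3.32, Hoxa10 by 0.20 ± 3.11 and Hoxd11 by -0.88 ± 3.02. A genotype difference of several-fold in either direction would not have been seen for them in this fit. With the number as a block none of them passed either (limma adjusted p from 0.679 to 0.845). In the fit without a block, errors were smaller where the numbers were alike. They were 0.16 ± 0.25 for Hoxa5, 0.01 ± 0.32 for Hoxc6, 0.57 ± 0.36 for Hoxa3 and -0.55 ± 0.60 for Hoxb4. The others were Hoxa9 at 0.37 ± 0.80, Hoxa11 at 0.43 ± 1.70, Hoxa13 at -0.39 ± 1.51, Hoxd8 at -0.69 ± 1.54 and Hoxd12 at -0.12 ± 1.07.

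**Figure D3:**
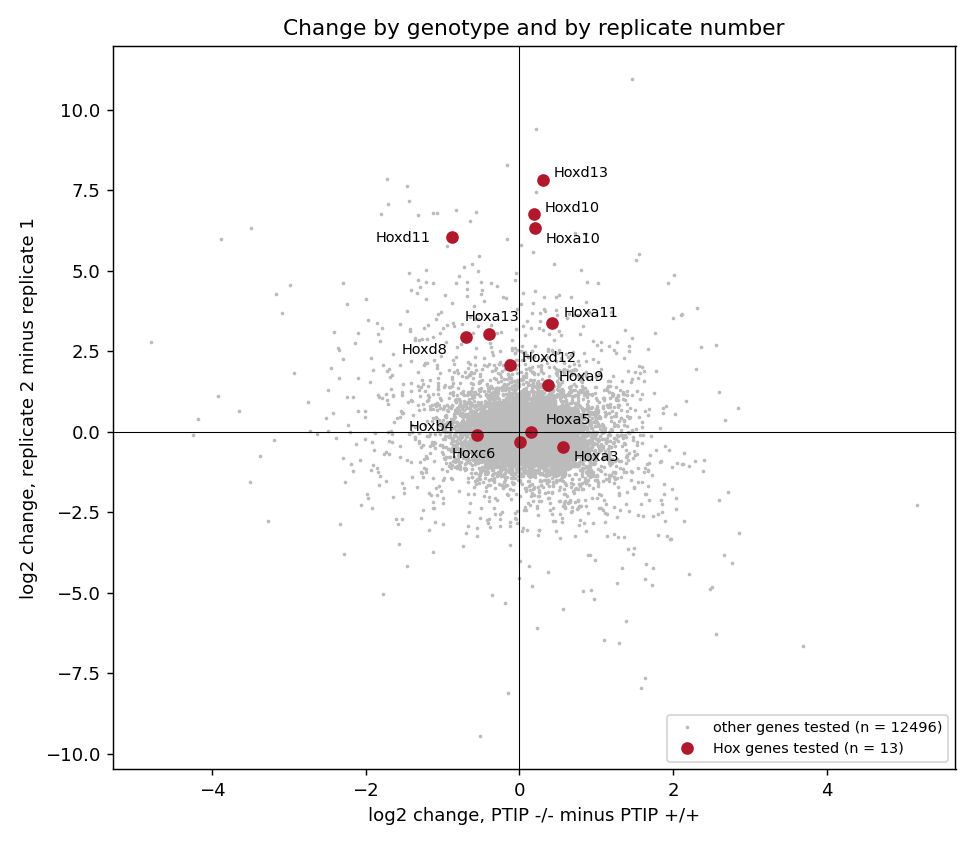
Log2 change by genotype (horizontal, PTIP -/- minus PTIP +/+) and by replicate number (vertical, replicate 2 minus replicate 1) for the 12509 genes tested, with the 13 Hox genes in red and the other 12496 in grey; both axes use the same 4 arrays. The Hox genes lie between -0.88 and 0.57 on the horizontal axis and reach 7.82 on the vertical one.

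Over all 33 measured genes, 6 had both PTIP -/- arrays above both PTIP +/+ arrays, namely Hoxa3, Hoxa4, Hoxa5, Hoxb2, Hoxb9 and Hoxc4, beside 18% of all genes. No Hox gene had them below, beside 11.6%. Of the 6, Hoxa4, Hoxb9 and Hoxc4 were under the level on every array and Hoxb2 on 3 of 4. Among tested genes, 90 (0.719%) were at least 2-fold higher and 106 (0.847%) at least 2-fold lower in PTIP -/- within both replicate numbers, and no Hox gene was in either set. The same count between the numbers, within both genotypes, gave 546 genes (4.36%) higher in replicate 2, among them Hoxa10, Hoxa11, Hoxa13, Hoxd8, Hoxd10, Hoxd11, Hoxd12 and Hoxd13, and 413 genes (3.3%) lower with no Hox gene. With signals raised to the level the first count was 516 genes (4.13%), and 7 of the 8 Hox genes stayed in it, Hoxd12 dropping out at 1.77-fold within PTIP +/+.

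The posterior genes can be compared by genotype within replicate number 2, where both arrays were above the level, as 1 array against 1 and with no test. This holds for 19 probe sets of 13 Hox genes. In 16 of them the genotypes differed by less than 2-fold, with the largest of these at 1.78-fold for the second Hoxa5 probe set, and 9 of the 19 were higher in PTIP -/-. Hoxd13 was 1.04-fold and 1.25-fold lower in PTIP -/- on its 2 probe sets, Hoxa13 1.36-fold lower, Hoxa11 1.09-fold lower and Hoxa10 1.18-fold lower on its first probe set. Hoxd10, Hoxd11 and Hoxd12 were 1.39-fold, 1.17-fold and 1.37-fold higher. Of the 4 genes that passed between the numbers, none differed by more than 1.39-fold in this pair of arrays.

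Hoxd8 and Hoxd9 differed more. Hoxd8 read 293.5 in PTIP -/- replicate 2 against 970.0 in PTIP +/+ replicate 2, or 3.30-fold lower, and 214.9 against 724.5 on its second probe set, or 3.37-fold lower. In replicate 1 the first probe set went the other way, 78.7 against 61.9, and the second was under the level on both arrays. Hoxd9 read 210.9 against 99.9, or 2.11-fold higher in PTIP -/-. Among all genes with both replicate 2 arrays at or above the level, 1061 of 11555, or 9.18%, differed by at least 2-fold between these 2 arrays. With 1 array for each genotype and number, a difference between the numbers in the genotype effect was not tested. Within replicate number 1, 779 genes (6.23%) differed by at least 2-fold, and the only tested Hox gene among them was Hoxd11, at 4.1 and 16.2, both under the level. Within replicate number 2, the tested Hox genes among the 1487 (11.9%) were Hoxd8 and Hoxb4, with Hoxb4 at 31.3 in PTIP -/- and 98.8 in PTIP +/+.

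**Figure D4:**
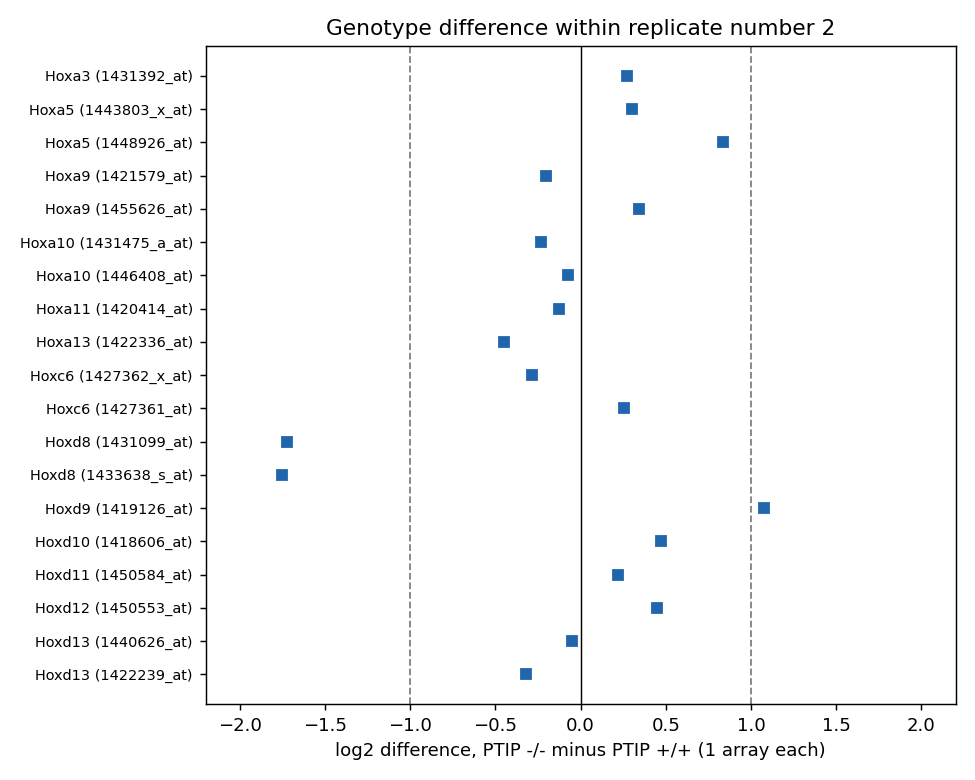
Log2 difference, PTIP -/- minus PTIP +/+, within replicate number 2 for the 19 Hox probe sets with both arrays at or above 47.68, each point being 1 array against 1 array, with 2-fold marked by dashed lines. Both Hoxd8 probe sets lie at -1.72 and -1.75 and Hoxd9 at 1.08, and the other 16 lie inside the dashed lines.

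Partners and regulators of Hox genes were read from lists, and none of their tested members passed in either comparison. The TALE homeodomain proteins, Pbx, Meis and Pknox, bind DNA together with Hox proteins. Of 9 listed, 7 were tested, with a median of -0.47 between the numbers and 0.20 by genotype. Meis3, Meis1 and Pknox1 led between the numbers with 0.99 ± 0.43, -0.63 ± 0.40 and -0.58 ± 0.35, and Pbx3, the brightest, differed by -0.58 ± 0.22. Meis1, Pknox2 and Meis3 led by genotype with 0.70, 0.54 and 0.41. The ParaHox and caudal genes are sister genes of the Hox clusters, and caudal proteins open posterior Hox expression in the embryo. All 6 were under the filter, and Cdx2 alone passed the level, on 1 array, at 70.5.

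The Polycomb list holds subunits and partners of the complexes that silence Hox clusters, and the demethylases Kdm6a and Kdm6b, which act against them. Of these, 16 were tested, with medians of 0.10 between the numbers and 0.23 by genotype. Phc1, a subunit of the first Polycomb complex, Kdm6a, a demethylase that takes off the Polycomb mark, and Ezh1, a methyltransferase that sets it, led between the numbers with 1.08, 0.73 and 0.69. Cbx8, Jarid2 and Kdm6a led by genotype with 0.84, 0.68 and 0.59, and Phc2, the brightest, differed by -0.44 between the numbers. Most genes of the MLL and Trithorax list belong to complexes that keep Hox genes active, and Smchd1, also on it, is a silencing protein. Of these, 15 were tested, with medians of -0.05 and -0.06. Wdr5 and Men1, subunits of MLL complexes, and the methyltransferase Kmt2b led between the numbers with -0.37, 0.37 and 0.32. Kmt2d and Pagr1a, both of the PTIP complexes, and Smchd1 led by genotype with 0.39, -0.30 and -0.23, and Dpy30, the brightest, differed by -0.24 between the numbers.

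Among other transcription factors that mark body position, 5 of 25 tested were called between the numbers, beside 0.656% of all genes, and none by genotype. Of the 5, 3 were higher and 2 lower in replicate 2, and the median of the 25 was -0.18. Tbx5, Alx1 and Shox2 were under the level on both arrays of 1 number and passed the filter only through the other number, so this share is no support either. Tbx5, the T-box gene of the forelimb, read 14.7 and 11.8 in replicate 1 and 224.5 and 416.4 in replicate 2 (4.54 ± 0.37, limma adjusted p = 0.0348). Lhx9, a limb and gonad gene, read 471.0 and 581.9 in replicate 1 and 4253.3 and 4798.0 in replicate 2 (3.11 ± 0.22, adjusted p = 0.0337). Msx1, a target of BMP signalling in limb and face, read 173.3 and 216.0 in replicate 1 and 3605.1 and 8578.5 in replicate 2 (4.85 ± 0.47, adjusted p = 0.0497). The called genes that were lower include Alx1, a gene of the facial mesenchyme, which read 991.7 and 793.3 in replicate 1 and 2.6 and 4.0 in replicate 2 (-8.10 ± 0.30, adjusted p = 0.0129). Shox2, a gene of the palate, heart and upper limb, read 994.8 and 754.7 in replicate 1 and 30.4 and 31.7 in replicate 2 (-4.80 ± 0.23, adjusted p = 0.0228). In all 5 the numbers did not overlap. Over all genes, 21.6% had both replicate 2 arrays above both replicate 1 arrays and 28.2% had them below. The 5 were picked by the call between these same arrays, so their lack of overlap is no support. Alx1 and Shox2 were at least 18.6-fold and 18.2-fold lower in replicate 2. Lmx1b and Hand2 had differences of 5.53 ± 1.16 and -4.89 ± 1.47 that did not pass (limma adjusted p = 0.133 and 0.197). Prrx1, the brightest, differed by -0.18, and by genotype Pitx1, Hand2 and Lmx1b led with 2.68 ± 0.59, 2.48 ± 2.56 and 1.56 ± 2.86.

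Retinoic acid, a signal that sets Hox expression in the embryo, was represented by 7 tested genes. Of these, 1 passed between the numbers, beside 0.656% of all genes. Crabp1, a retinoic acid binding protein, passed the filter only through its replicate 1 signals, so this share is no support. It read 1926.7 and 9880.9 in replicate 1 and 9.8 and 3.9 in replicate 2 (-9.46 ± 0.93, limma adjusted p = 0.0497), at least 91.5-fold lower. Crabp2, its relative, read 3.4 and 51.4 in replicate 1 and 2614.9 and 817.3 in replicate 2 (6.79 ± 1.45, adjusted p = 0.135). Cyp26b1, which breaks retinoic acid down, differed by -1.20 ± 1.03, and the receptor Rarg, the brightest, by 1.06 ± 0.24. By genotype Cyp26b1, Crabp2 and Rara led with -1.93 ± 0.76, -1.12 ± 3.60 and 1.10 ± 0.69, and none passed.

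Markers of cell types were read beside the Hox genes. All 8 fibroblast markers were at or above the level on all 4 arrays, and their summed signal was 146235.8 and 153814.4 in replicate 1 and 126815.8 and 160688.6 in replicate 2. Of these 8, 3 were higher and 5 lower in replicate 2, with a median difference of -0.03. Col1a1, Col3a1 and Vim differed by 0.30, 0.24 and 0.22, and Col1a2 and Pdgfrb by -0.06 and -0.31. Within that list the surface markers Thy1 and Pdgfra differed most and moved opposite to the posterior Hox genes without passing. Thy1 read 14822.9 and 16080.1 in replicate 1 and 1500.7 and 239.2 in replicate 2 (-4.69 ± 0.91, limma adjusted p = 0.121), and Pdgfra 3563.4 and 5010.1 against 174.2 and 583.2 (-3.73 ± 0.64, adjusted p = 0.104). The 4 skeletal muscle markers summed to 336.5 and 328.7 in replicate 1 and 9030.2 and 1958.6 in replicate 2. Nearly all of the replicate 2 sums was the muscle actin Acta1, while the muscle regulators Myod1 and Myog reached at most 57.8 and 52.6. The 4 pluripotency markers summed to 159.4 and 136.5 in replicate 1 and 447.2 and 862.4 in replicate 2. Most of the replicate 2 sums was Sox2. Dppa5a went the other way, at 119.5 and 83.9 in replicate 1 against 75.7 and 63.9 in replicate 2. Pou5f1 and Nanog were under the level on all arrays. Summed signals overlapped between the numbers for the endothelial (169.0 to 300.1) and neural markers (1093.8 to 1740.2). The neural sum hides opposite changes. Tubb3 read 269.4 and 291.0 in replicate 1 and 79.3 and 51.0 in replicate 2. Nes rose from 198.1 and 305.9 to 598.0 and 518.8, and Map2 and Sox10 had no order by number. Summed signals were higher in replicate 1 for the epithelial markers, at 582.0 and 771.7 against 423.5 and 487.2. The same held for the blood markers, at 642.1 and 845.3 against 460.4 and 560.5. Among the blood markers Lyz2 differed most, at 333.3 and 153.4 in replicate 1 against 99.9 and 36.0 in replicate 2. Cd68 went the other way, at 93.4 and 73.0 against 107.6 and 112.1, and Ptprc had no order by number. The defining genes Cdh1, Pecam1 and Ptprc reached at most 21.7, 12.3 and 51.8, and no marker was at 0. Fewer cells of a type and less RNA per cell cannot be told apart in these arrays, and the part of these markers in the Hox difference was not tested.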

How the data were processed

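Total RNA of 4 samples, 2 of PTIP -/- and 2 of PTIP +/+ immortalized mouse embryonic fibroblasts, was read on 1 Affymetrix array each. The deposited values are signal intensities on a linear scale, 1 for each of 45101 probe sets. The submitters' processing notes name RMA without a version, but the values are linear, hold 1 value of 0 and have a mean of 499.8 to 499.9 after 2% is trimmed at each end, as scaling to a common mean gives. Background correction, probe summary and the build behind the probe sets are not named by any source used here. Signals on such arrays give the relative level of a probe set between arrays, not between genes.

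The 0 was replaced by 0.1, 64 control probe sets were left out, and intensities were taken to log2. The platform annotation gives 1 gene symbol for 34945 probe sets, several for 932 and none for 9160, and 34741 symbols were updated through gene numbers in the RefSeq table of GRCm38.p6, which was also used for the list of Hox genes and for gene order. The probe set with the highest mean log2 signal stood for a gene. Both comparisons, PTIP -/- minus PTIP +/+ and replicate 2 minus replicate 1, were fitted over all 4 arrays with limma 3.58.1 (lmFit and eBayes) in R 4.3.3, with no covariate and 2 residual degrees of freedom, over 12509 genes, leaving out 5684 under the filter. They share all arrays. Standard errors come from the moderated fit. The script was tested on simulated data. Comparisons of 1 array with 1 array carry no test.

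Promoter sequences are RefSeq's for GRCm38.p6, found for 22 of the 39 Hox genes, and the 50 bases after each start were left out. Every Hox gene past the filter is described in full, and the others by their range or where a probe set passed the level. From each other gene list the 3 tested genes with the largest change in each comparison and the brightest are named. All measured genes of the list inside the clusters are named. The cell type markers did not follow this rule: they are given as sums, with some members named. Members, lists, level and rules were chosen with earlier results of these data known.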

Additional observations from a re-analysis of the deposited data

How the results depend on the processing

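The alternatives were quantile normalization, arrays centred on their medians, no filter, a filter at the 60th percentile, signals raised to the level, probe sets averaged per gene, a variance trend with robust moderation, the other factor as a block, each array left out and, chosen after seeing the data, a linear mean to pick probe sets and every probe set fitted by itself. No change of a described Hox gene that was called turned its sign under any of them. In the comparison of replicate numbers the 82 genes called became 127 with quantile normalization, 361 with centred arrays, 145 at the 60th percentile, 226 with raised signals, 284 with the variance trend, 143 with every probe set by itself and 0 with no filter, where 2505 had an unadjusted p under 0.05. The 4 Hox genes called became 7 with centred arrays and 0 with no filter. Without 1 array the counts ran from 0 to 85 genes and from 0 to 3 Hox genes: only the fit without PTIP -/- replicate 2 called any, and Hoxd13, Hoxd10 and Hoxa10 passed in it. Their log2 changes in the fits without 1 array stayed within 7.48 to 8.16, 6.52 to 7.0 and 6.0 to 6.64, and that of Hoxa13 within 2.83 to 3.28. These fits have 1 residual degree of freedom, and the lone array is taken to vary like the others. Why the other counts moved was not tested.

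Centring moved the median of all genes from -0.05 to 0.14 between the numbers and from 0.05 to -0.13 by genotype. Genes at least 2-fold higher in PTIP -/- within both numbers, 90, became 57 with quantile normalization, 40 with centred arrays, 552 with no filter, 34 at the 60th percentile, 57 with raised signals and 150 with every probe set by itself, and the 106 lower ones became 297 with no filter. The count of 0 Hox genes in these sets became 1 higher with no filter (Hoxa4, under the level throughout) and 1 lower with every probe set by itself (the second Hoxd8 probe set). The 546 genes higher in replicate 2 within both genotypes became 849 with no filter. The 413 lower ones became 272 with centred arrays, 980 with no filter and 253 at the 60th percentile, and the 8 Hox genes higher became 4 at the 60th percentile. The genotype median of the tested Hox genes, 0.16, was -1.43 without PTIP -/- replicate 2 and -1.54 without PTIP +/+ replicate 1, and 1.11 without PTIP -/- replicate 1 and 1.3 without PTIP +/+ replicate 2.

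With the number as a replicate block the genotype comparison called 0 genes and 0 Hox genes, as without it, and with genotype as a block the comparison of numbers called 80 genes and the same 4 Hox genes. There are only 2 pairs, so whether a number pairs the RNAs cannot be settled. The differences between the numbers correlated at 0.686 over 12509 genes between the genotypes. The differences between the genotypes correlated at 0.239 between the numbers.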
